A study of Mus musculus with 6 samples.

Results

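Imprinted genes are expressed mainly from the copy inherited from 1 parent, and a set of them that governs growth before birth is known to be expressed together in several kinds of somatic stem cell, blood stem cells included. The network examined here holds the 10 members Dlk1, Meg3, Igf2, H19, Cdkn1c, Grb10, Ndn, Peg3, Plagl1 and Mest, taken by gene symbol from probe sets that carry exactly 1 symbol. Of these, 9 were measured, out of 19938 genes in all. No probe set carries H19 as its 1 symbol in the annotation used here, so H19 has no value.

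The values come from mouse bone marrow cells that received the MSCV retroviral vector, either with MN1, written Mn1 in the sample protocol (the MN1 group, labelled mn cells), or with IRES and the reporter alone, the empty vector group (labelled gfp control). Cells positive for the reporter were sorted 72 hours later in both groups. The design text gives the construct as MSCV-MN1-IRES/YFP and speaks of EYFP, while the sample labels say gfp. Each group holds 3 one-colour arrays, which the design text ties to 3 independent experiments, and the labels name no strain, genotype, age or donor count. The viral promoter drives the transgene in any marrow cell it enters, so each array averages over a mixture of cell types.

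The network acts at several levels of growth control. Plagl1 is a zinc finger transcription factor placed upstream of other imprinted genes, H19 and Meg3 are long non-coding RNAs, Igf2 is a fetal growth factor, and Grb10 dampens signalling from the insulin and IGF receptors. Dlk1 is a membrane protein with EGF repeats related to the Notch ligands, known from fetal progenitor cells and preadipocytes. Cdkn1c, also called p57, is a cyclin-dependent kinase inhibitor needed for quiescence of blood stem cells, and Ndn, a MAGE family protein, is likewise linked to their quiescence. Peg3 is a large zinc finger protein and Mest a hydrolase-like protein of the endoplasmic reticulum.

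Dlk1 and Grb10 are the members whose values carry the results below, and Meg3 is the neighbour of Dlk1 on chromosome 12 that is normally expressed from the opposite parental copy. The 300-base windows that RefSeq start sites give for them are printed (GRCm38.p6, 250 bases before to 50 after the start). They are read along the strand of the gene, with CpG dinucleotides, on which parental imprints are written, in capitals. The windows were taken at start sites, not at imprint control regions, and methylation was not measured.
Dlk1, chr12:109452573-109452872, plus strand: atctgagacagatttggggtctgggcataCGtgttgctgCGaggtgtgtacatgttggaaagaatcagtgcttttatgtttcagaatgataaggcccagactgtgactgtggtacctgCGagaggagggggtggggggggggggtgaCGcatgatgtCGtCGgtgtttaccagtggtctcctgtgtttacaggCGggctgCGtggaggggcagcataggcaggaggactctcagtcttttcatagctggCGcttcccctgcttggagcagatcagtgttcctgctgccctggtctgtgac
Meg3, chr12:109540746-109541045, plus strand: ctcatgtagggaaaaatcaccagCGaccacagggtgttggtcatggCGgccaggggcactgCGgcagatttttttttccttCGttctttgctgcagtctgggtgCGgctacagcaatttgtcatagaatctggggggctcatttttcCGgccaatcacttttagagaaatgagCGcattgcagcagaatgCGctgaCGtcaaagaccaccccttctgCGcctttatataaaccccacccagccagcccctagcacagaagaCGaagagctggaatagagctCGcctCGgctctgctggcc
Meg3, chr12:109545148-109545447, plus strand: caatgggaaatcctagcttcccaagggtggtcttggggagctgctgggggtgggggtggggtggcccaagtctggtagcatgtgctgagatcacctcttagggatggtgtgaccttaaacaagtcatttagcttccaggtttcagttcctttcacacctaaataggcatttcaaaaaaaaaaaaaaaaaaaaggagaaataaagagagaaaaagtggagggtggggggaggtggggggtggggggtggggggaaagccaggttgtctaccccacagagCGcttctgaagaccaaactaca
Grb10, chr11:12037371-12037670, minus strand: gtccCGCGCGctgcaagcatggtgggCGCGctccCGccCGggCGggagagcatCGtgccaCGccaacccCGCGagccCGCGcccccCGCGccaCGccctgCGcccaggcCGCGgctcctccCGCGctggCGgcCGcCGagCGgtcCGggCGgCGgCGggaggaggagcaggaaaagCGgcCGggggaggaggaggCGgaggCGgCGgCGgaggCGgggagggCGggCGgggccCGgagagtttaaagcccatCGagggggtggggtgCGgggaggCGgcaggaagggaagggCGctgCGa
Grb10, chr11:12027922-12028221, minus strand: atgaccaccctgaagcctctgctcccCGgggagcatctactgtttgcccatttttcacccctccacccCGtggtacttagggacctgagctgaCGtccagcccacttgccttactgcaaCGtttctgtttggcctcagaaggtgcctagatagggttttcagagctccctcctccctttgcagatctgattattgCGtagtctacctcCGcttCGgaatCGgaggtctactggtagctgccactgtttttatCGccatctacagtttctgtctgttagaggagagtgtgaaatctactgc
The Dlk1 window holds 9 CpG, where the median of 32851 such windows is 7. Of the 2 Meg3 windows, the first holds 13 CpG and the second, a start further inside the gene, holds 1, more than 5.43% of windows. The Dlk1 start listed lies 338 bases inside the gene's outermost end in the same build, so other starts of this gene are not shown by it. The first Grb10 window holds 45 CpG, more than 98.1% of all windows, and the second, a start further inside the gene, holds 9. The array reads all Grb10 transcripts through 1 probe set, so the starts cannot be told apart in the values. Windows were matched for 8 of the 9 measured members, 15 windows in all, of which a pair for Mest overlap nearly completely. AGGTCA, the core site of retinoid receptors, whose coactivator MN1 is known to be, was searched with its reverse complement TGACCT and occurs in 2 of the 15 windows (1 of Meg3, 1 of Igf2) and in 16.3% of all windows. TGACAG, a Meis site, searched with CTGTCA, occurs in 1 of the 15, of Igf2, and in 19.2% of all windows. TGACCT and TGACAG share the letters TGAC. Of the windows printed above, the second of Meg3 holds AGGTCA, and the others hold neither motif.

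Dlk1 was the member that differed most between the groups. Its log2 values were 9.57, 10.74 and 8.57 on the 3 MN1 arrays and 7.88, 7.48 and 7.20 on the 3 empty vector arrays. Every MN1 array lay above every empty vector array, and MN1 replicate 2 was the highest. The means were 9.63 ± 1.09 and 7.52 ± 0.34 (SD, n = 3 each), a difference of 2.10 ± 0.52 (SE, log2), or 4.30-fold, with a 95% interval of 0.84 to 3.37. Only 10 of the 19938 genes had a larger increase. The difference did not pass adjustment over all genes (limma with Benjamini-Hochberg adjustment, adjusted p = 0.584), and an exact permutation test of 3 against 3 arrays gave a two-sided p of 0.1, the smallest it can give. Over all genes, 0 (0.0%) passed, and 1675 genes (8.4%) had an unadjusted limma p under 0.05. The labels do not state whether arrays of a group came from separate animals, so these p-values measure only the spread between arrays. In RNA from mixed cells, more cells that express Dlk1 and more Dlk1 RNA per cell cannot be told apart.

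**Figure D1:**
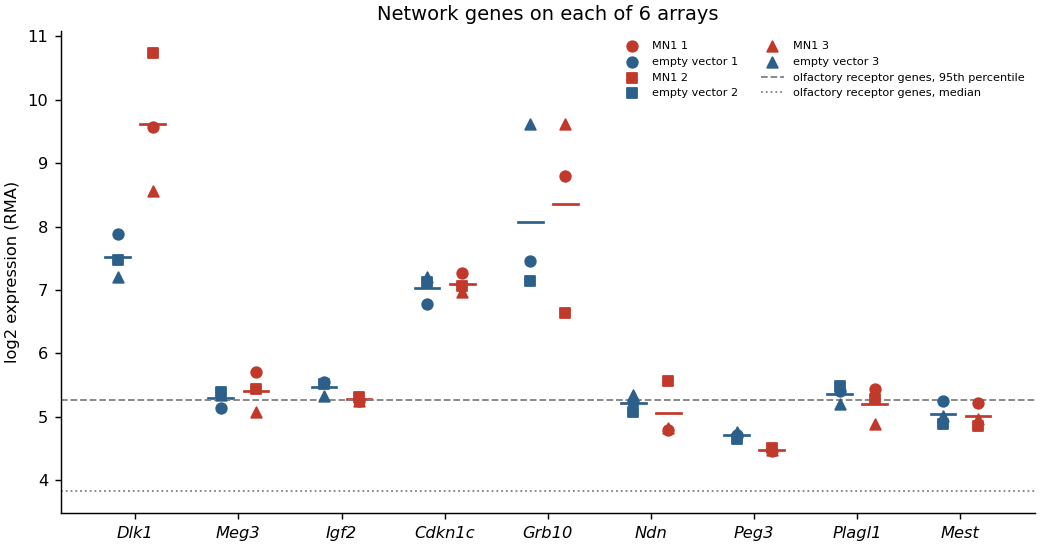
Log2 expression (RMA) of the 9 measured network genes on each of 6 arrays, with red for MN1, blue for the empty vector, a marker shape per replicate number and a bar for each group mean; the grey lines are the 95th percentile and the median of the means of 1027 olfactory receptor genes. Dlk1 is the gene with all MN1 points clearly above the others, Grb10 spans 2.98 within the 6 arrays with both groups mixed, and 6 genes lie near or below the dashed line.

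The other 8 measured members lay between -0.23 and 0.28, with a median difference of -0.10. Over all 9 the median was -0.04, beside -0.03 over all genes, with 4 members higher and 5 lower. Dlk1 was the 1 measured member with a difference of 2-fold or more, which 1.37% of all genes had (0.993% upward, 0.381% downward). The MN1 arrays lay wholly above the empty vector arrays for 1 member (Dlk1), against 5.71% of all genes, and wholly below for 2 (Igf2 and Peg3), against 10.3%. The other 6 overlapped. Over all genes the groups lay apart in 16.0%. An unadjusted limma p under 0.05 was met by 1 higher member (Dlk1; 4.17% of genes) and 1 lower member (Peg3; 4.23%).

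Of the 9 measured members, 6 were dim on these arrays. As a rough guide to unexpressed levels, since probe sets differ in brightness and no detection call was used here, the mean of each gene was set beside those of 1027 olfactory receptor genes, which marrow is not known to transcribe. Their means had a median of 3.83 and a 95th percentile of 5.27. Dlk1, Grb10 and Cdkn1c lay more than 0.15 above that percentile. Igf2, Meg3 and Plagl1, with means of 5.37, 5.35 and 5.28, lay less than 0.15 above it. Ndn, Mest and Peg3, with means of 5.14, 5.03 and 4.60, lay below it. RMA compresses differences at such levels, so differences in these 6 genes can be understated.

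Igf2, the growth factor, measured 5.25, 5.32 and 5.25 with MN1 and 5.55, 5.52 and 5.33 with the empty vector. The groups do not overlap, but the gap between the nearest arrays is narrow, and the difference was -0.19 ± 0.10 (SE; limma adjusted p = 0.597). Peg3 measured 4.47, 4.50 and 4.48 with MN1 and 4.72, 4.65 and 4.76 with the empty vector. It was lower on all 3 MN1 arrays, by a log2 difference of -0.23 ± 0.09 (SE; limma adjusted p = 0.584). Olfactory receptor genes showed a like direction: 777 of 1027 were lower with MN1, their median difference was -0.06, the lowest 5% lay under -0.25, and 13.8% of them had all MN1 arrays below all empty vector arrays, against 1.36% above. The values of Igf2 and Peg3 are inside that range.

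Cdkn1c, the kinase inhibitor, was flat. It measured 7.27, 7.06 and 6.98 with MN1 and 6.78, 7.12 and 7.20 with the empty vector, with the groups interleaved. The difference was 0.06 ± 0.15 (SE), and the 95% interval from -0.29 to 0.42 leaves out a 2-fold change in either direction. Meg3 measured 5.71, 5.44 and 5.08 against 5.14, 5.39 and 5.35, a difference of 0.12 ± 0.18, with MN1 replicate 1 highest and MN1 replicate 3 lowest. Plagl1 measured 5.45, 5.28 and 4.88 against 5.41, 5.49 and 5.21, a difference of -0.16 ± 0.17. For both RNAs the groups overlap. Ndn measured 4.79, 5.56 and 4.83 against 5.23, 5.08 and 5.35, a difference of -0.16 ± 0.22 in which MN1 replicate 2 stood above the other 5 arrays. Mest measured 5.22, 4.85 and 4.97 against 5.25, 4.89 and 5.01, the smallest difference of the network at -0.04 ± 0.14 (SE). Their limma adjusted p lay between 0.745 for Plagl1 and 0.941 for Mest.

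Grb10 varied nearly as widely as Dlk1 over the arrays, with the groups mixed. It measured 8.80, 6.64 and 9.62 with MN1 and 7.46, 7.15 and 9.62 with the empty vector. MN1 replicates 1 and 3 and empty vector replicate 3 were high, and the other 3 arrays were low. The group means were 8.35 ± 1.54 and 8.07 ± 1.35 (SD, n = 3 each), a difference of 0.28 ± 0.93 (SE; limma adjusted p = 0.927), and the 95% interval from -1.97 to 2.53 does not exclude a 2-fold change in either direction. Its range of 2.98 over the 6 arrays was exceeded by 0.828% of genes, and that of Dlk1, 3.54, by 0.411%. The same 3 arrays had the highest mean of 3 Y-linked genes (Kdm5d, Uty and Eif2s3y): 7.11, 7.57 and 7.04, against 6.12 on MN1 replicate 2 and 5.78 and 3.78 on empty vector replicates 1 and 2. They also had the highest mean of 16 B lineage genes, 6.68, 6.80 and 6.91, against 5.88, 6.01 and 5.59 in the same order. Xist, the X inactivation RNA, was lowest on these 3 arrays, at 9.45, 9.02 and 8.70, against 9.79, 9.52 and 10.25. The mix of male and female cells on each array was not tested. With replicate number as the block, the Grb10 difference stayed at 0.28, with a smaller SE of 0.38. With the 3 arrays high in Y-linked RNA and the 3 low ones as a block, the Grb10 difference was -0.54 ± 0.25 (SE), the opposite direction. It was -0.41 among the high arrays (2 MN1, 1 empty vector) and -0.66 among the low ones. Leaving out single arrays also turned it: it was -0.35 when MN1 replicate 3 was dropped, -0.19 when empty vector replicate 2 was dropped and -0.029 when empty vector replicate 1 was dropped. Dropping empty vector replicate 3 gave 1.05, dropping MN1 replicate 2 gave 1.14, and dropping MN1 replicate 1 gave 0.052. The part of B lineage RNA in the Grb10 values was not tested.

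The genes whose values, centred on their own mean, came closest to Grb10 over the 6 arrays were Ebf1, Ets2, Aldh1l2, Dusp16 and Cd79a, with root-mean-square differences of 0.37 to 0.46; they were looked up after the Grb10 values were seen, and Ebf1 and Cd79a are in the B lineage list. Ebf1, a transcription factor of early B cells, measured 6.39, 4.74 and 6.50 with MN1 and 4.84, 4.60 and 6.83 with the empty vector. Cd79a, the B cell receptor signalling chain, measured 6.37, 5.05 and 7.50 against 6.16, 5.53 and 8.54. In both, the highest 3 arrays are those on which Grb10 was high. That order held for 8 of the 16 B lineage genes and not for the other 8. The share of all genes with that order was not determined, so the count is not read as a result about B lineage genes. Il7r, a receptor of early lymphoid cells, measured 11.51, 10.81 and 9.26 against 10.08, 7.90 and 9.12, and Igll1, a surrogate light chain, was low on empty vector replicate 3, at 6.05. Sgce, the imprinted epsilon-sarcoglycan gene, measured 6.72, 6.17 and 7.50 against 5.78, 5.47 and 6.72, so the same 3 arrays lead. Its difference was 0.81 ± 0.43 (SE), and within the high and low Y-linked arrays it was 0.39 and 0.55. Cd81, a tetraspanin imprinted in placenta, followed the same arrays, with a mean of 12.17 on the high and 11.26 on the low ones, and differed between MN1 and empty vector by 0.29 ± 0.37. For Dlk1 the high and low arrays averaged 8.45 and 8.70, and the MN1 difference was 1.87 in the high and 3.06 in the low arrays.

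**Figure D2:**
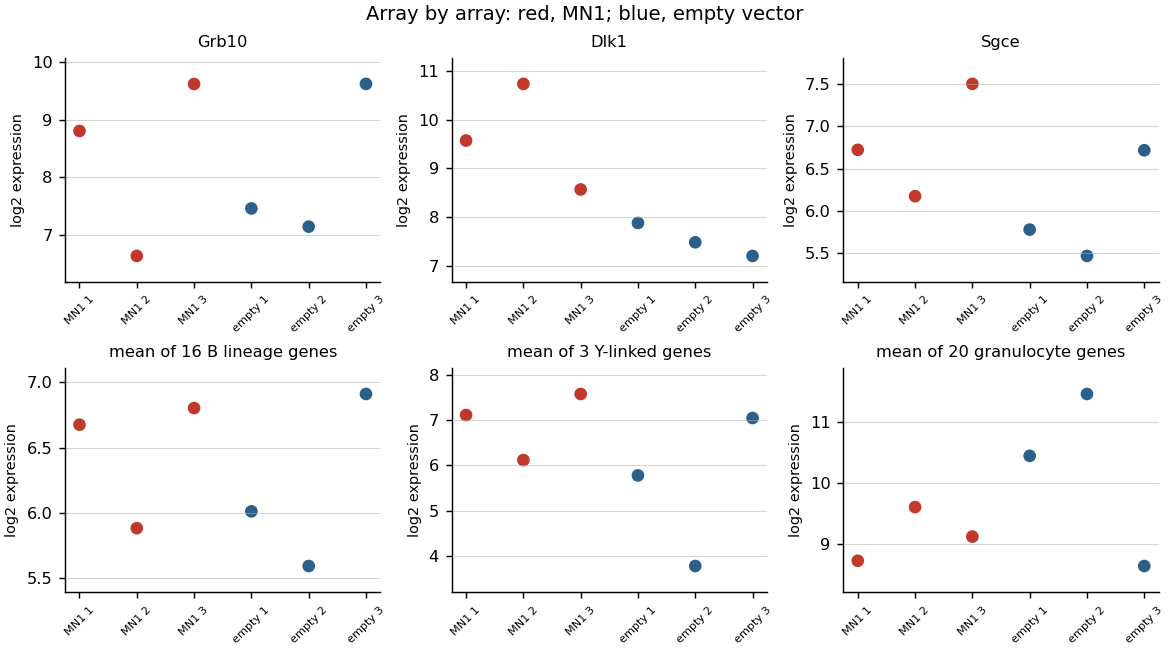
Log2 expression on each array (x axis; red, MN1; blue, empty vector) of Grb10, Dlk1, the imprinted gene Sgce, and the means of 16 B lineage, 3 Y-linked and 20 granulocyte genes, each panel on its own scale. Grb10 and the B lineage mean are high on MN1 1, MN1 3 and empty vector 3, whereas Dlk1 separates the groups.

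No other measured gene of its chromosomal domain had a difference near that of Dlk1, but most of them were dim: 16 of the 46 others lay above the 95th percentile of olfactory receptor genes, and Meg3, Rian and Dio3 lay near or below it. The stretch from Dlk1 to Dio3 on chromosome 12 carries Dlk1, Rtl1 and Dio3, expressed from the paternal copy, and Meg3, Rian, Mirg and many microRNA and small nucleolar RNA genes, expressed from the maternal copy. By gene order in the RefSeq table, 47 genes of this stretch have a probe set with 1 symbol; this set was drawn up after values of some of them had been seen. Of the 46 besides Dlk1, 5 lay higher and 41 lay lower, with a median difference of -0.07 and a range of -0.45 to 0.19. Of 1027 olfactory receptor genes, 777 lay lower, with a median of -0.06. Of the 46, 0 passed the limma test over all genes, and 3 had an unadjusted limma p under 0.05, against 8.4% of all genes. Groups lay apart for 4 of the 46, against 16.0% of all genes. Rtl1, a retrotransposon-derived placental protein, measured 5.35, 5.58 and 5.42 against 5.61, 6.11 and 5.46, a difference of -0.28 ± 0.18 (SE). Dio3, which inactivates thyroid hormone, measured 4.86, 5.06 and 4.83 against 4.95, 5.44 and 5.21, a difference of -0.28 ± 0.15. Rian measured 4.55, 4.50 and 4.63 against 4.24, 4.57 and 4.30, a difference of 0.19 ± 0.12. In all 3 the groups overlap. Begain, on the other side of Dlk1, differed by -0.05 ± 0.08, and Wdr25 beyond it by 0.19 ± 0.19.

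The domain's microRNA genes were mostly lower with MN1, by small amounts. The array carries 40 of them, read through probes in the precursor and labelled with a protocol for long transcripts, so the values say little about mature microRNA. Of the 40, 3 were higher and 37 lower, between -0.45 and 0.06, with a median of -0.07. Of these genes 13 lay above the 95th percentile of olfactory receptor genes, whose own median difference was -0.06 with 777 of 1027 lower. Mir431 was lowest, with 6.49, 6.68 and 6.48 against 6.93, 7.33 and 6.75, groups that do not overlap and a difference of -0.45 ± 0.17 (SE; limma adjusted p = 0.584). Mir127 differed by -0.14 ± 0.11, Mir434 by -0.10 ± 0.14 and Mir136 by -0.01 ± 0.09. These 4 lie antisense to Rtl1 and are known to direct cleavage of its RNA. Their mature RNAs are printed 5′ to 3′ with the seed, bases 2 to 8, in capitals, to show that none of the 4 shares a seed.
miR-431-5p: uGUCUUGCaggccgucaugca
miR-127-3p: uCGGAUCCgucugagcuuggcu
miR-434-3p: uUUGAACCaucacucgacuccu
miR-136-5p: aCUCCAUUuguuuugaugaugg
Among microRNA genes inside other members, Mir335, within Mest, differed by -0.23 ± 0.11 with groups that do not overlap, and Mir483, within Igf2, by -0.36 ± 0.17 with overlapping groups.

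**Figure D3:**
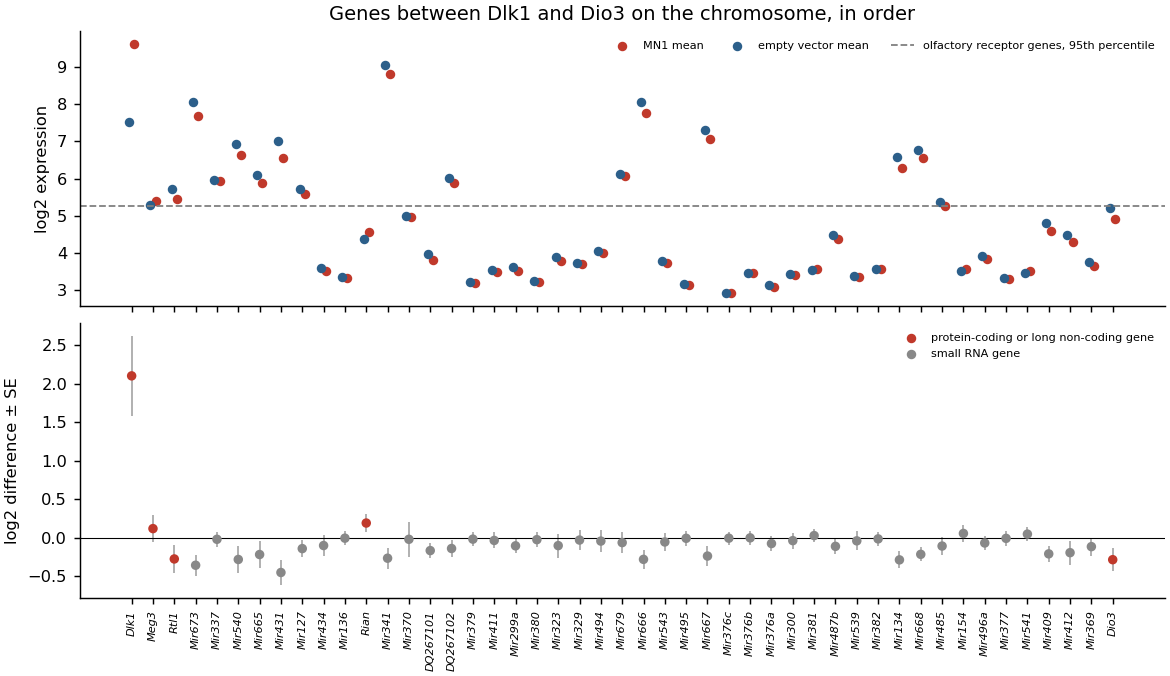
The 47 measured genes from Dlk1 to Dio3 in chromosomal order, evenly spaced. Top, mean log2 expression with MN1 (red) and empty vector (blue), n = 3 each; bottom, the log2 difference ± SE (limma), with small RNA genes in grey. Dlk1 lies at 2.10 and the other 46 between -0.45 and 0.19.

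Neighbours of the other members were read in the same way, again after values had been seen. On chromosome 11, Grb10 lies between Ddc and Cobl, both counted with the imprinted genes. Ddc, the dopa decarboxylase, measured 4.94, 5.16 and 5.19 with MN1 and 6.20, 6.10 and 5.87 with the empty vector. Cobl, an actin nucleator, measured 6.54, 7.15 and 6.73 against 8.07, 7.57 and 7.39. Both were lower on every MN1 array, by log2 differences of -0.96 ± 0.13 and -0.87 ± 0.23 (SE), while Grb10 between them overlapped. Beside Cdkn1c on chromosome 7, Phlda2, a growth-limiting placental gene, measured 5.52, 5.64 and 5.86 against 5.96, 6.05 and 6.21. Its groups do not overlap and its difference was -0.40 ± 0.13, while Slc22a18 and Kcnq1, next to Cdkn1c on either side, differed by -0.07 ± 0.13 and -0.11 ± 0.13. Next to Ndn, Magel2 differed by -0.15 ± 0.09, and next to Peg3, Zim1 differed by -0.18 ± 0.09 and Usp29 by 0.04 ± 0.12. Past Igf2, Ins2 differed by -0.14 ± 0.11. Beside Mest, Copg2 differed by 0.23 ± 0.25 and Klf14, an imprinted transcription factor gene, by -0.38 ± 0.14. Plagl1 had neighbours with overlapping groups throughout, Sf3b5 and Zc2hc1b next to it differing by 0.0084 ± 0.19 and -0.14 ± 0.10. Of 44 measured protein-coding genes within 3 such genes of a member, H19 included, the MN1 arrays lay wholly below the others for 10 (Ddc, Cobl, Phlda2, Klf14, Cpa1, Cpa5, Magel2, Zim1, Ins2 and Begain) and wholly above for 0. Over all genes 10.3% lay wholly below, and over olfactory receptor genes 13.8%. No neighbour named here passed the limma test over all genes.

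Imprinted genes outside the network had small differences in both directions. Of 20 other paternally expressed genes, 7 lay higher and 13 lay lower (median difference -0.09). Of 30 others listed as maternally expressed, 14 lay higher and 16 lay lower (median -0.04). Ddc is counted in this list, and the parental copy it is expressed from was not checked here. Of the 50, 0 passed the test and 0 were at least 2-fold different. The largest differences in the paternal list were in Sgce, given above, Airn, the antisense RNA of Igf2r, and Sfmbt2, a Polycomb-related gene. Airn measured 6.48, 5.02 and 4.88 against 5.01, 4.59 and 4.86, so that its difference of 0.64 ± 0.42 (SE) rests on MN1 replicate 1. Sfmbt2 measured 6.44, 6.17 and 6.69 against 5.59, 5.60 and 6.22, a difference of 0.63 ± 0.22 with a slight overlap. Besides Ddc and Cobl, the largest difference in the maternal list was in Igf2r, the receptor that clears Igf2. It measured 9.34, 8.63 and 7.91 against 8.17, 7.22 and 8.23, a difference of 0.76 ± 0.42. For 9 of the 50 the MN1 arrays lay wholly below the others and for 0 wholly above, against 10.3% and 5.71% of all genes.

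**Figure D4:**
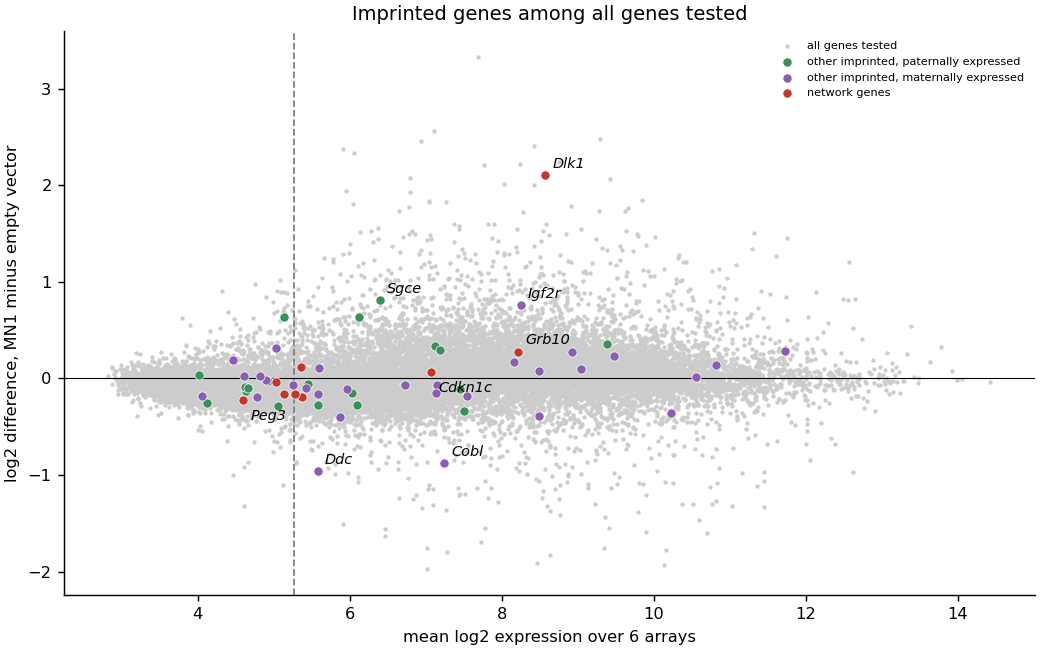
Log2 difference (MN1 minus empty vector) against mean log2 expression over the 6 arrays for 19938 genes (grey) and the 9 network genes (red). Other imprinted genes are coloured by the list they were placed in, paternally (green) or maternally expressed (purple, Ddc included). The dashed line is the 95th percentile of olfactory receptor genes at 5.27; Dlk1, at 2.10, lies apart from the other imprinted genes, which lie between -0.96 and 0.81.

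Genes through which the network acts were read from lists, and 0 genes of any of these lists passed the test. In the IGF list, 10 of 23 genes were higher and 13 lower (median -0.09). Igfbp5, a secreted IGF-binding protein, measured 7.83, 9.98 and 9.71 with MN1 and 12.24, 10.56 and 10.52 with the empty vector. All MN1 arrays were lower, by a log2 difference of -1.94 ± 0.70 (SE; limma adjusted p = 0.584), with MN1 replicate 1 lowest and empty vector replicate 1 highest. Igfbp4 measured 9.63, 10.38 and 11.17 against 11.12, 11.45 and 11.38, a difference of -0.92 ± 0.37 with a narrow overlap. Igf1, the circulating growth factor, measured 10.23, 9.91 and 7.99 against 9.14, 6.70 and 7.50, a difference of 1.60 ± 0.80 with overlapping groups. Igf1 is made by macrophages, and the mean of 19 monocyte and macrophage genes ran from 9.84 to 10.62 with MN1 and from 8.82 to 9.66 with the empty vector; its part in the Igf1 values was not tested. The receptors Igf1r and Insr, whose signal Grb10 dampens, differed by 0.03 ± 0.20 and 0.33 ± 0.37.

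In the Notch list, 10 of 22 genes were higher and 12 lower (median -0.06). Dlk2, the closest relative of Dlk1, measured 6.85, 6.93 and 6.72 against 7.10, 7.07 and 7.13. It was lower on every MN1 array, by a log2 difference of -0.26 ± 0.10 (SE), against the 2.10 of Dlk1. Hes1, a target of Notch, measured 8.49, 7.82 and 8.87 against 6.76, 7.77 and 8.19, a difference of 0.82 ± 0.42 with overlapping groups. Nrarp, a feedback inhibitor of Notch, differed by -0.70 ± 0.67, a value that rests on empty vector replicate 3 at 8.70 where the other 5 arrays lay between 6.11 and 6.55. Jag1, a Notch ligand, differed by 0.33 ± 0.42. Adam17, the protease that sheds Dlk1 from the membrane, differed by 0.24 ± 0.14. Sox9, which Dlk1 is known to induce in preadipocytes, measured 5.33, 5.44 and 5.27 against 5.63, 5.68 and 5.67, a difference of -0.31 ± 0.09.

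In the list of kinase inhibitors other than Cdkn1c, 6 of 7 genes were measured. Of these 6, 2 were higher and 4 lower (median -0.44). The 6 include Cdkn3, at -0.43, which encodes a phosphatase despite its symbol. Cdkn2b, or p15, measured 7.00, 7.64 and 7.76 with MN1 and 8.48, 8.04 and 8.69 with the empty vector. Cdkn2a, which encodes p16 and Arf, measured 6.65, 7.00 and 7.50 against 7.51, 7.56 and 7.55. Neither gene's groups overlap, and the differences were -0.94 ± 0.25 and -0.49 ± 0.21 (SE). For Cdkn2a the gap is narrow, between 7.50 on MN1 replicate 3 and 7.51 on empty vector replicate 1. Over all genes, 10.3% had all MN1 arrays below all empty vector arrays. Cdkn2c differed by -0.45 ± 0.24, and Cdkn1b, the inhibitor most like Cdkn1c in role, by 0.11 ± 0.30. In a list drawn up for imprint control, 15 of 28 genes were higher and 13 lower (median 0.05). The list is broader than genes that set or guard imprints, and includes Tet1, Tet2, Tet3, Lin28a, Lin28b and Hmga2. Uhrf2, a reader of modified cytosine, measured 8.49, 8.21 and 8.72 against 7.83, 7.82 and 8.18, a difference of 0.53 ± 0.17 with groups just apart. Uhrf1, which brings Dnmt1 to replicating DNA, differed by -0.65 ± 0.45, with MN1 replicate 1 at 8.64 and the other 5 arrays between 10.15 and 10.56. The methyltransferase Dnmt3a differed by 0.47 ± 0.34 and Dnmt1 by -0.18 ± 0.23. Among 8 genes listed as family relatives or partners of the members, 6 were higher and 2 lower (median 0.14). Plag1 led at 0.47 ± 0.26, then Maged1 at 0.36 ± 0.22 and Siah1a at 0.24 ± 0.12, all with overlapping groups.

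**Figure D5:**
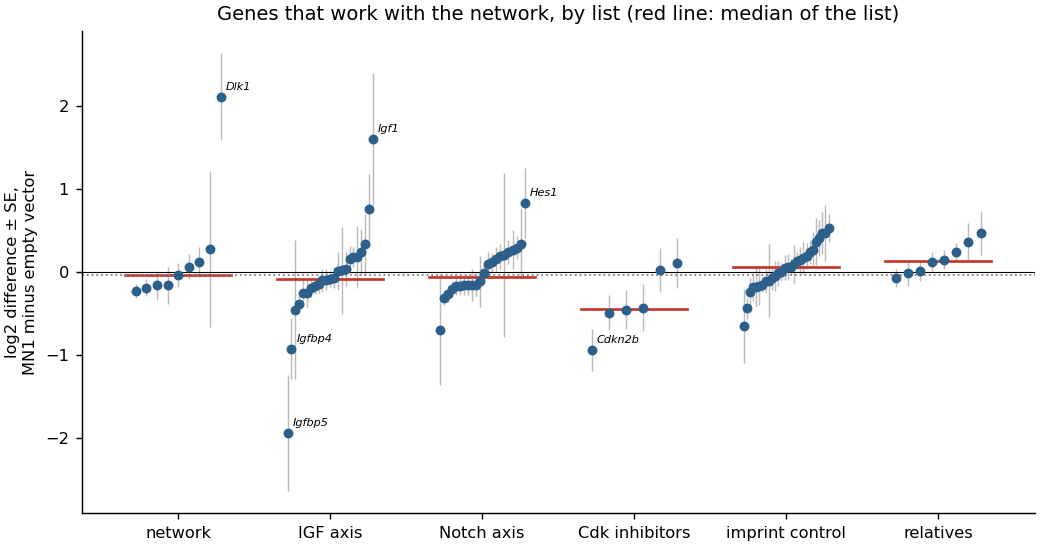
Log2 difference ± SE (limma, 3 arrays per group) of each gene in the network list and in 5 lists of genes that act with it, sorted within a list; the red bar is the list median and the dotted line the median of all genes, -0.03. Dlk1 at 2.10, Igf1 at 1.60 and Igfbp5 at -1.94 lie farthest from 0.

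The genes closest to Dlk1 over the 6 arrays, by the root-mean-square difference of values centred on each gene, were Serpina3b (0.283), Dio2 (0.325), Phf11d (0.405), Cdcp1 (0.472) and Bmp2 (0.472). Dio2, which activates thyroid hormone, measured 9.08, 10.06 and 8.91 with MN1 and 7.39, 7.07 and 6.95 with the empty vector. Serpina3b, a serine protease inhibitor gene whose near-identical family members could share its probes, measured 7.29, 8.11 and 5.89 against 5.33, 4.25 and 4.60. In both genes MN1 replicate 2 was highest and MN1 replicate 3 the lowest of its group, as for Dlk1. Both were picked for likeness to Dlk1 on these same arrays, so a like order follows from the choice. The closest other member was Meg3, at 1.17, which ranked 2789 among all genes, and Grb10 was farthest, at 1.99. The measure is not scaled for spread. Distances of members that vary little thus say little about likeness to Dlk1, and the wide range of Grb10 adds to its distance.

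Mn1, the gene named by the construct, measured 6.47, 6.62 and 6.08 on the MN1 arrays and 5.34, 5.41 and 4.80 on the others, so that no array went against its label. Whether the transgene is the human or the mouse gene is not stated, so how far this mouse probe set reads it is not known. Array medians ran from 5.82 to 6.01. Marrow markers were present: the mean of 20 granulocyte genes ran from 8.73 to 9.61 with MN1 and from 8.64 to 11.46 with the empty vector. Stem, stromal and endothelial cells are among those that could carry Dlk1. The mean of 22 stem cell genes ran from 7.86 to 8.16 with MN1 and from 7.27 to 7.62 without. Of the 22, 16 were higher and 6 lower, with a median difference of 0.47, against -0.03 over all genes. Flt3, Hlf and Slamf1 differed most, by 1.83, 1.30 and 1.04. Procr, Kit, Fgd5, Hoxb5 and Robo4 differed by 0.11, -0.04, -0.10, -0.20 and -0.35. That of 21 stromal genes ran from 5.80 to 6.09 with MN1 and from 6.16 to 6.23 without, with 5 of 21 higher, and that of 14 endothelial genes from 6.51 to 6.97 and from 6.40 to 6.66, with 9 of 14 higher. Megakaryocyte genes (12 measured) ran from 8.45 to 10.14 and from 7.89 to 9.12, with 11 higher and a median difference of 0.92. Monocyte and macrophage genes (19) ran from 9.84 to 10.62 and from 8.82 to 9.66, with 17 higher and a median of 0.89. Erythroid genes (12) ran from 6.82 to 7.27 and from 7.22 to 7.58, with 3 higher. Mast cell and eosinophil genes (16) ran from 8.45 to 9.30 and from 9.02 to 10.05, with 1 higher. T and NK genes (16) ran from 5.55 to 5.77 and from 5.85 to 6.08, with 4 higher. Of the 21 stromal and 14 endothelial genes, 15 and 12 lay above 5.27, the 95th percentile of olfactory receptor genes. Those below it include Lum (3.45), Lepr (3.88), Postn (3.95), Cdh5 (4.80) and Emcn (3.84). Tek, Tie1, Esam and Robo4 are in both the stem cell and endothelial lists, and Vwf in the stem cell and megakaryocyte lists. Thy1, with the largest stromal difference at -1.10, is also in the T and NK list. Lists that share genes are not separate measures of cell types. The part of these cell types in the Dlk1 difference was not tested.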

How the data were processed

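Sorted mouse marrow cells gave RNA, of which 200 ng was labelled for whole-transcript arrays (Affymetrix, 1 colour), per the labels' protocols. The authors deposited log2 expression values per probe set, which the submitters' processing notes credit to RMA; the RMA version is not given in the sources used here. RMA normalizes arrays to one another and pulls dim values together. Precision is limited by having 3 arrays in each group.

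Of 35557 probe sets, 21789 carry 1 gene symbol in the platform annotation, 1621 several and 12147 none. The brightest probe set of a gene by mean was kept (19938 genes); each measured network gene had 1. Groups and replicate numbers come from the sample titles. All genes were tested with limma 3.58.1 in R 4.3.3 (lmFit, eBayes, two-sided, Benjamini-Hochberg, threshold 0.05, no block); 0 value columns were left out. The fit was tested on simulated data. Same-numbered arrays deviated together with correlations of 0.13, 0.07 and 0.32, so the numbers were not taken as pairs. The network genes and the lists were chosen with earlier results of these data known. Genes named are the network genes, Mn1, up to 3 with the largest difference per list, and the 5 most like Dlk1; others were named after their values were seen. Lists of cell markers are described by means, apart from the B lineage and Y-linked genes named with Grb10. Sequences and gene order come from RefSeq tables of GRCm38.p6; of 19938 genes 19856 matched by gene ID. Alternatives were the replicate block, median centring, quantile normalization, removal of the dimmest 40% of genes, the mean of probe sets, every probe set tested, array weights, a robust prior with an intensity trend, leaving out each array, a block of arrays high and low in Y-linked genes (split at the median) and a threshold of 0.1.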

Additional observations from a re-analysis of the deposited data

How the results depend on the processing

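Under every alternative run, 0 network genes and 0 of all genes passed the adjusted threshold, and Dlk1 stayed higher with MN1, between 1.55 without MN1 replicate 2 and 2.63 without MN1 replicate 3. Its difference was 2.02 after quantile normalization and 2.46 with the arrays high and low in Y-linked genes as a block. With the replicate block it was 2.10, with an adjusted p = 0.50 (limma; 0.50 to 0.94 over all alternatives), and the block moved the genes at an unadjusted p under 0.05 from 1675 to 1980; same-numbered arrays did not all correlate best with their own number, so this pairing is only a number. That count was 850 with the dimmest 40% left out and 2557 with every probe set tested, since fewer or more features were tested, and 906 to 1953 when 1 array was left out, lowest without empty vector replicate 2. The median of the network genes was 0.28 with the dimmest 40% left out, where 3 of the 9 remain, and -0.11 to 0.05 when 1 array was left out. Grb10 reversed to -0.54 with the Y-linked block and ran from -0.35 to 1.14 with 1 array left out. Small differences also reversed when 1 array was left out: Cdkn1c ran from -0.063 to 0.15, Meg3 from -0.031 to 0.28 and Mest from -0.14 to 0.063. Ndn ran from -0.41 without MN1 replicate 2 to -0.027 without MN1 replicate 1 and Plagl1 from -0.28 without MN1 replicate 1 to -0.0025 without MN1 replicate 3. Mest was 0.0019 after quantile normalization. The cause was not tested. Signal near that of unexpressed genes limits Igf2, Meg3, Plagl1, Ndn, Mest and Peg3.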
